A study of Mus musculus with 6 samples.

Results

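The genes described here are 10 Sox transcription factors of neural progenitors and young neurons, out of 18193 genes that the array annotation names: Sox1, Sox2, Sox3, Sox4, Sox5, Sox6, Sox9, Sox11, Sox12 and Sox21. They were taken as every probe set that the annotation assigns to 1 of these genes and to no other, which gave 38 probe sets. For each gene the main probe set is the one with the highest mean log2 signal over the 6 arrays, and the others are given beside it. Pineal glands of newborn 129 mice at postnatal day 0 were compared between wildtype animals and animals homozygous for a Neurod1 knockout, which the labels also call transgenic. Each genotype had 3 pools of 3 glands dissected by day, and each pool was run on 1 Affymetrix array. The labels name neither the deleted part of Neurod1 nor a Cre driver, and pools of the same number in both genotypes carry the same date.

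Sox proteins share the HMG box of the sex-determining factor Sry, a domain that binds the minor groove of DNA and bends it. The SoxB1 proteins Sox1, Sox2 and Sox3 hold neural cells in the progenitor state, and the SoxB2 protein Sox21 counteracts them. The SoxC proteins Sox4, Sox11 and Sox12 are active in cells that leave the cycle and become neurons. The SoxD proteins Sox5 and Sox6 carry no activation domain and work beside other factors, and the SoxE protein Sox9 is a factor of glial progenitors and of cartilage. Neurod1 is a basic helix-loop-helix factor that binds E-boxes, whose letters are CANNTG, and it drives late steps of neuronal and endocrine differentiation.

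For the SoxC genes, the neuronal group of the family, the 250 bases before the annotated start are shown so that any E-box letters, the motif that Neurod1 binds, can be seen in capitals. They come from RefSeq on GRCm38.p6, 5′ to 3′ on the gene's strand, at chr13:28953700-28953949 (minus strand) for Sox4, chr12:27342719-27342968 (minus strand) for Sox11 and chr2:152398047-152398296 (minus strand) for Sox12.
Sox4: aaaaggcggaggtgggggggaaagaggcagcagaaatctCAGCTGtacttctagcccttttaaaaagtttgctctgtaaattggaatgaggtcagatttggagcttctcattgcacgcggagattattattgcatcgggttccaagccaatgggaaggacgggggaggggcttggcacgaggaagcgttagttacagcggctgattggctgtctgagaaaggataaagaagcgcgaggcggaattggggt
Sox11: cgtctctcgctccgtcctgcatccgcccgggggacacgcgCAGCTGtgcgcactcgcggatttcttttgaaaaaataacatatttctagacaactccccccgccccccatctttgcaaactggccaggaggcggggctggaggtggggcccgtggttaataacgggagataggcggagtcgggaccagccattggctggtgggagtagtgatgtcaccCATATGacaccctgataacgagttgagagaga
Sox12: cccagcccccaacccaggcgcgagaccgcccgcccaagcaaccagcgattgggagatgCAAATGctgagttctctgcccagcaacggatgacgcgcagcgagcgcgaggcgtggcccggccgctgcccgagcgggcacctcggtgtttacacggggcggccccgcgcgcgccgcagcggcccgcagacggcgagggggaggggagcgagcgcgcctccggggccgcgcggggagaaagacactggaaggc
The window of Sox11 held 2 E-boxes and those of Sox4 and Sox12 held 1 each. Those of Sox1, Sox2, Sox5 and Sox21 held 0, and the windows at the 6 annotated starts of Sox6 held 1 to 3. The form CAGCTG was in the windows of Sox4 and Sox11 and in 1 of the 6 Sox6 windows. On both strands, 66.2% of the 32851 windows of the same length in the RefSeq table held CANNTG and 13.0% held CAGCTG. These matches describe letters, not binding.

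The arrays had medians between 132 and 184 after the authors' scaling. Of 15 pineal and photoreceptor genes with a probe set, 14 lay above the filter on dim probe sets described below and Rcvrn, at 7.2 to 24.5, lay under it. Neurod1 followed the labels, with a mean signal of 8616 ± 959 in wildtype against 346 ± 204 after knockout (SD, n = 3) and a log2 difference of −4.67 (SE 0.45, limma adjusted p = 0.0362). Among the 12797 genes tested it was the only one with an adjusted p under 0.05, which is 0.00781% of them. Some pools stood apart: Ttr, a choroid plexus gene, was at 898 and 685 in 2 pools, wildtype 1 and knockout 3, with 38903 to 87464 elsewhere, the spermatid gene Crisp2 was at 17677 in knockout pool 2, and the summed signal of 21 ribosomal protein genes was 629229 in knockout pool 1, the other pools lying between 185321 and 275232.

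None of the Sox genes passed the test between genotypes. Of the 10, 7 lay above the filter on dim probe sets (mean log2 signal above the 40th percentile of all probe sets, a signal of 105) and were tested, and Sox1, Sox5 and Sox21 lay below it. Among the 7, Sox3, Sox4, Sox6, Sox9 and Sox11 had higher and Sox2 and Sox12 lower means in knockout, each with a limma adjusted p of 0.998, while 53.2% of all genes tested had higher means. At an unadjusted p under 0.05 there were 0 of the 7, against 3.34% of all genes tested. With the pool number as a block the count was again 0 of the 7, against 6.24%. The median log2 difference of the 7 was 0.21, against 0.03 over all genes tested, and within pool numbers 1, 2 and 3 it was 0.40, 0.51 and −0.0021. The Sox median was 0.0051 with the mean of each gene's probe sets above the filter, 0.072 with median centring, 0.076 over all 10 genes without the filter, 0.14 with quantile normalization, and between 0.12 (without wildtype pool 1) and 0.35 (without wildtype pool 3) when 1 pool was left out. In a pooled tissue, fewer cells of a type and less RNA per cell cannot be told apart.

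With each array centred on its median, the median difference of all genes moved by −0.14, and the share of genes with lower means went from 46.8% to 62.3%. The Sox split was then 3 lower and 4 higher, with Sox11 at −0.032. Array weights in limma, whose estimation did not converge and which put 7.05 and 6.20 on the pools numbered 2 and at most 0.541 on the others, called 3 Sox genes (Sox2, Sox3 and Sox6) among 22.9% of all genes.

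**Figure D1:**
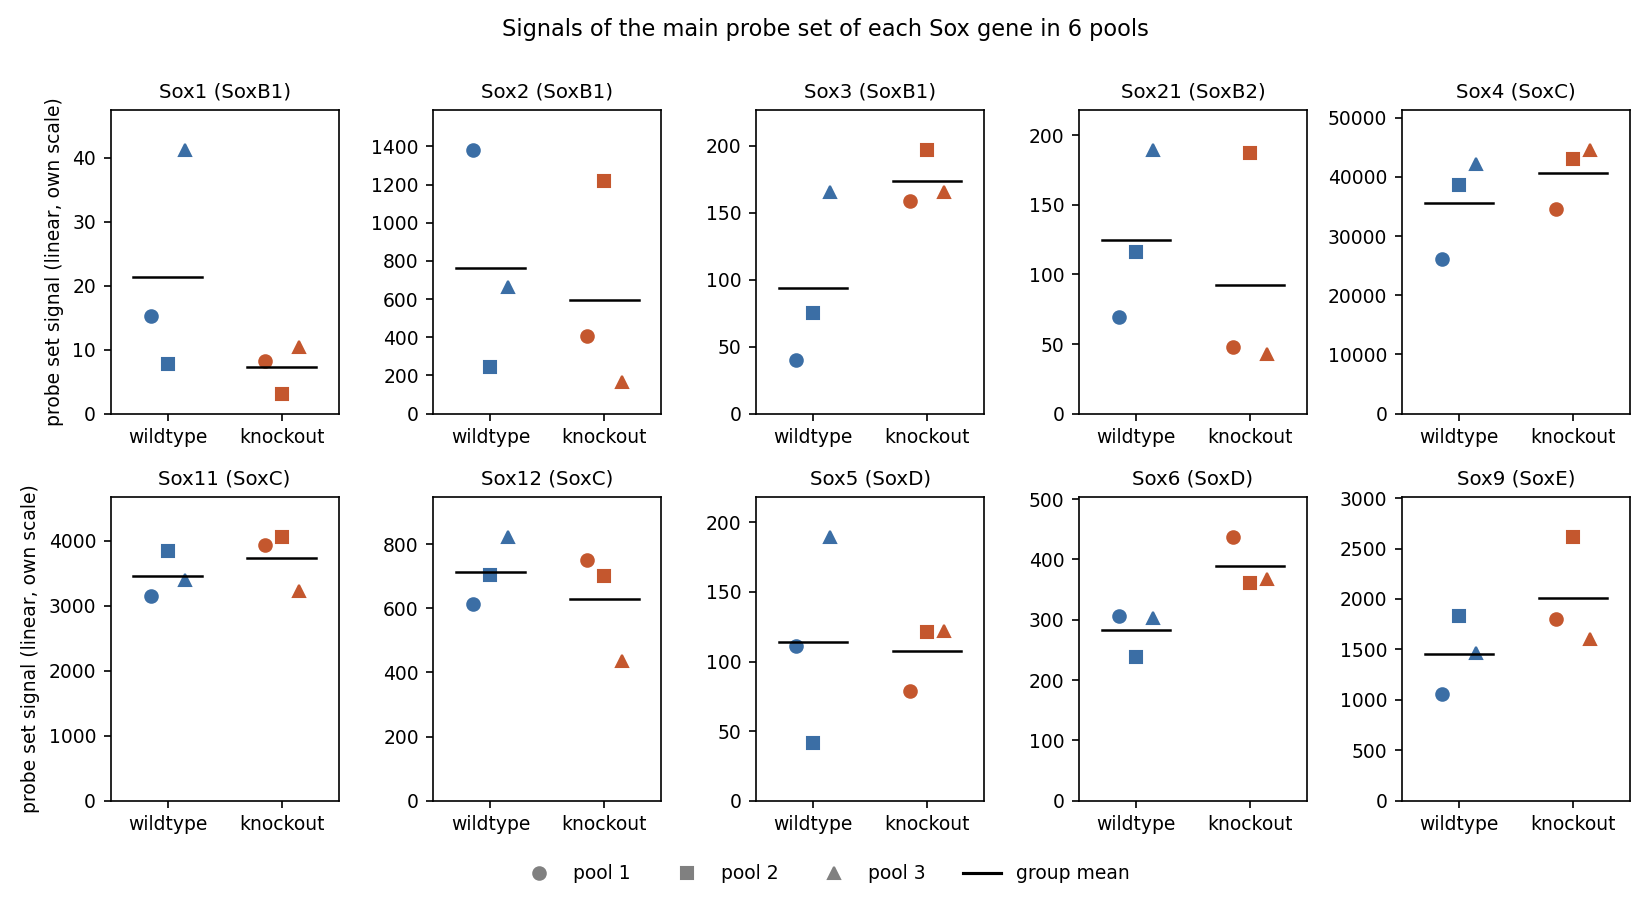
Linear probe set signal of the main probe set of each Sox gene, with its Sox group in brackets, in 3 wildtype (blue) and 3 knockout (orange) pools; shapes mark pool numbers, black lines are group means, and each panel has its own axis from 0. Only Sox6 has groups that do not overlap, and the Sox2 pools spread from 163 to 1383.

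Sox2 varied more between pools than any other Sox gene tested, and not by genotype. Sox2, the main SoxB1 factor of neural progenitors, has 1 probe set, 1416967_at, with signals of 1383, 243 and 662 in wildtype pools 1, 2 and 3 and 408, 1217 and 163 in knockout pools 1, 2 and 3. The high pools were wildtype 1 and knockout 2, the low ones wildtype 2 and knockout 3, and the groups overlapped. The means were 763 ± 576 and 596 ± 551 (SD, n = 3). The log2 difference of −0.44 (SE 0.72) had a 95% interval from −2.06 to 1.19.

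Within pool numbers 1, 2 and 3 the Sox2 difference was −1.67, 2.15 and −1.80, so its direction turned between pairs. The SD of Sox2 over the 6 pools was 1.14 on the log2 scale, larger than that of 98.7% of the genes tested. Leaving out 1 pool moved the difference from −1.13 without knockout pool 2 to 0.19 without knockout pool 3, and it was 0.12 without wildtype pool 1. The pool with the highest Sox2 signal, wildtype 1, had the lowest summed signal of 14 astrocyte and radial glia markers, 70033 against 85313 to 133422 in the others. Gja1, at 30178 in that pool, was the largest part of the sum. The median deviation of the markers from their means was also lowest there, at −0.26 on the log2 scale. Not every marker was low in that pool: Fabp7 was at 7682, with 4496 and 5115 in wildtype pools 2 and 3. Gja1 and Fabp7 are named after their values were seen. The part of astrocytes and radial glia in the Sox2 signal was not tested.

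Sox3 had the smallest unadjusted p of the Sox genes tested. Sox3, an X-linked SoxB1 gene, had signals of 40.1, 75.1 and 165 in the wildtype pools and 158, 197 and 165 in the knockout pools at its main probe set 1435192_at. The knockout pools lay close together, while wildtype pools 1 and 2 lay below all of them and wildtype pool 3 lay among them. The means of 93.5 ± 64.7 and 174 ± 20.6 (SD, n = 3) gave a log2 difference of 0.79 (SE 0.41, 95% interval −0.15 to 1.73, limma unadjusted p = 0.0891 and adjusted p = 0.998).

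The Sox3 difference was 1.32, 1.05 and −0.0021 within numbers 1, 2 and 3. The second Sox3 probe set, 1450485_at, stayed between 19.4 and 34.7 in all pools, below the filter, with a log2 difference of −0.12. Without wildtype pool 1 the difference was 0.47. The pools also differed in sex-linked transcripts: Kdm5d, on the Y chromosome, was at 21.6 and 21.4 in 2 pools, wildtype 2 and knockout 1, and from 328 up to 1163 elsewhere, while Xist was between 27599 and 84474 in all 6. The part of the sex mix in the Sox3 values was not tested.

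Sox1 and Sox21 gave signals below the filter. The main Sox1 probe set, 1438729_at, had 15.3, 7.7 and 41.3 in wildtype and 8.3, 3.0 and 10.5 in knockout, and the second one, 1422205_at, lay between 3.0 and 24.9. All 12 of these values were under 42, and the log2 differences of the pair had opposite signs, −0.35 and 0.23. Sox21 had 69.4, 116 and 190 in wildtype and 47.9, 188 and 42.6 in knockout at 1437059_at. Its high pools were wildtype 3 and knockout 2, and the groups overlapped. The Sox21 log2 difference was −0.42 (SE 0.49) in the fit without the filter, and its second probe set gave −0.31.

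**Figure D2:**
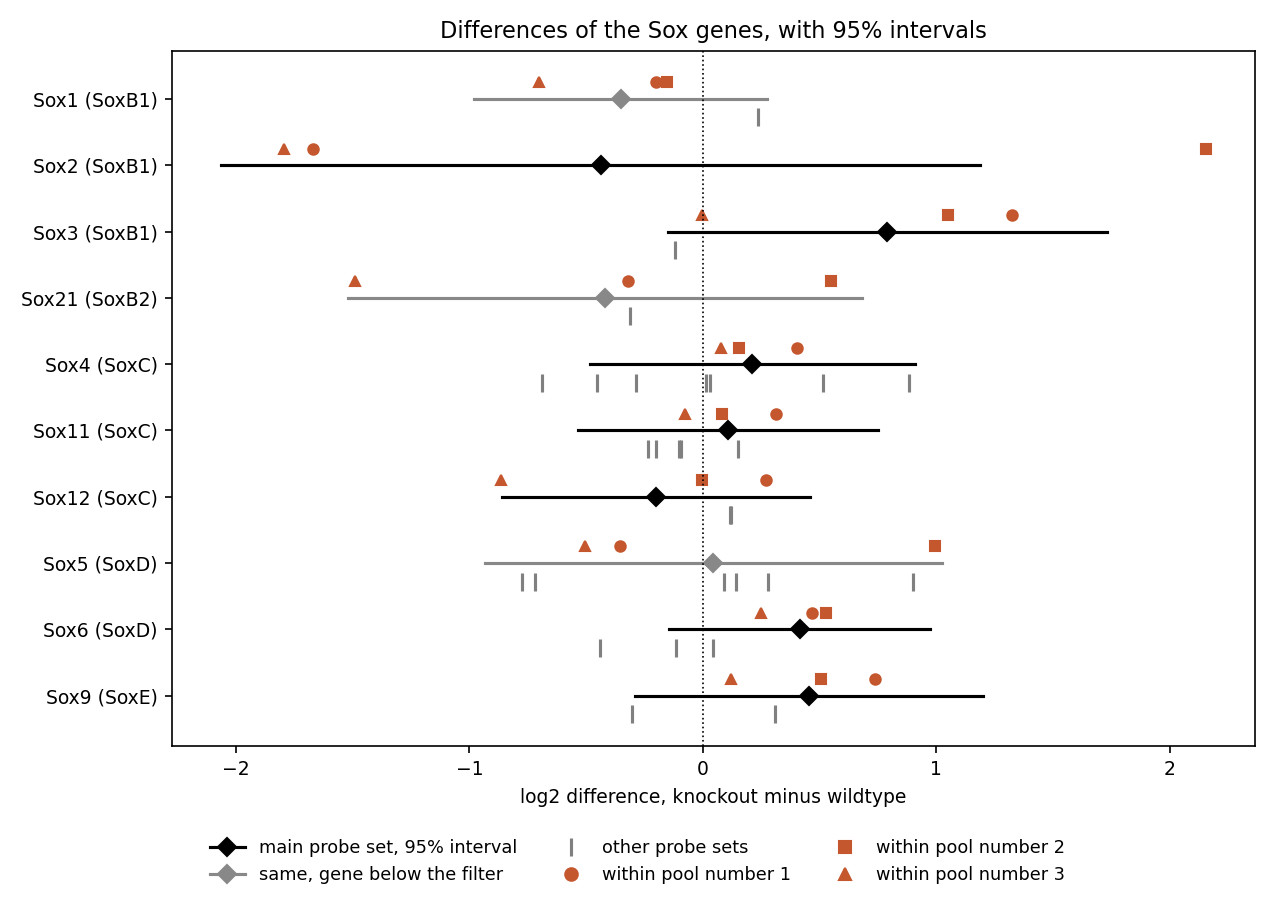
Log2 difference of each Sox gene, knockout minus wildtype; diamonds with bars are the limma estimate and 95% interval of the main probe set (grey where the gene lies below the filter), orange shapes the difference within each pool number, and grey ticks the other probe sets. Every interval includes 0, and Sox2 runs from −1.80 to 2.15 between pool numbers.

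SoxC genes, which mark cells on the way to becoming neurons, did not pass the test, and the means of Sox4 and Sox11 were higher and that of Sox12 lower in knockout. Sox4, a factor that supports the survival and maturation of young neurons, had signals of 26184, 38586 and 42249 in wildtype and 34599, 42958 and 44628 in knockout at its main probe set 1433575_at. The means were 35673 ± 8419 and 40728 ± 5374 (SD, n = 3), and the groups overlapped. Its log2 difference was 0.21 (SE 0.31), with a 95% interval from −0.48 to 0.91, or from 0.715 to 1.88 as a ratio.

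The Sox4 difference was 0.40, 0.15 and 0.08 within numbers 1, 2 and 3. Wildtype pool 1 was the lowest of the 6, and without it the difference was 0.0037. The Sox4 signal stood near the top of the range of the arrays, at 61.3% to 74.6% of the highest signal in 5 pools and 29.5% in knockout pool 1. Quantile normalization turned its difference to −0.20, and median centring gave 0.072. The other 7 Sox4 probe sets stayed at 548 or less in every pool, with differences from −0.69 to 0.88, 3 of them lower and 4 higher in knockout.

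Sox11 had the smallest spread over the pools of the Sox genes tested. Sox11, a close relative of Sox4 that activates genes of immature neurons, had signals of 3153, 3834 and 3402 in wildtype and 3929.5, 4063 and 3228 in knockout at 1429051_s_at. The highest pool was 1.29 times the lowest, and 2.59% of the genes tested had a smaller SD over the pools. The means were 3463 ± 345 and 3740.3 ± 449 (SD, n = 3), with a log2 difference of 0.11 (SE 0.28, 95% interval −0.54 to 0.75). Leaving out wildtype pool 1 gave 0.043, leaving out knockout pool 2 gave 0.045, and leaving out knockout pool 3 gave 0.21.

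All 6 Sox11 probe sets lay above the filter. Their log2 differences were 0.11, −0.09, −0.20, −0.24, −0.10 and 0.15, in order of falling mean, so 4 were lower and 2 higher in knockout. The mean over the 6 gave −0.062. At 1431225_at the signals were 1129, 2592 and 3090 in wildtype and 1315, 2200 and 2052 in knockout. Pool 1 was the lowest pool there in both genotypes, and the same held for 5 of the 6 Sox11 probe sets, against 16.9% of all 45037 probe sets. The pattern was noticed after the values were seen.

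The Sox4 main probe set was also lowest in pool 1 of both genotypes, as were 2 of the 8 Sox4 probe sets in all, 2 of the 3 for Sox9, and 16 of the 38 of the 10 genes. Of the 15 pineal and photoreceptor genes, 8 were highest in pool 1 of both genotypes, Otx2 was lowest there in both, and the other 6 showed neither. The share of all genes highest in pool 1 of both genotypes was not computed, so the 8 cannot be set against it. Tph1 and Crx, among the 8, were singled out after their values were seen. Tph1, which encodes tryptophan hydroxylase, had 15095, 8881 and 6296 in wildtype and 12501, 3795 and 2755 in knockout. Crx, a homeobox factor of pineal and photoreceptor cells, had 5902, 3275 and 2772 in wildtype and 5549, 2279 and 1681 in knockout. What moves with pool number was not tested.

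Sox12, the third SoxC gene, had signals of 615, 703 and 824 in wildtype and 750, 702 and 435 in knockout at 1455562_at. Knockout pool 3 was the lowest of the 6, and the other knockout pools lay within the wildtype range. The log2 difference was −0.20 (SE 0.29, 95% interval −0.86 to 0.46), and 0.27, −0.0029 and −0.87 within numbers 1, 2 and 3. Without knockout pool 3 it was 0.031, and with the mean of its probe sets above the filter −0.038. The second probe set above the filter, 1439754_at, gave 236 ± 24.6 and 265 ± 66.4 (SD, n = 3), a log2 difference of 0.12.

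**Figure D3:**
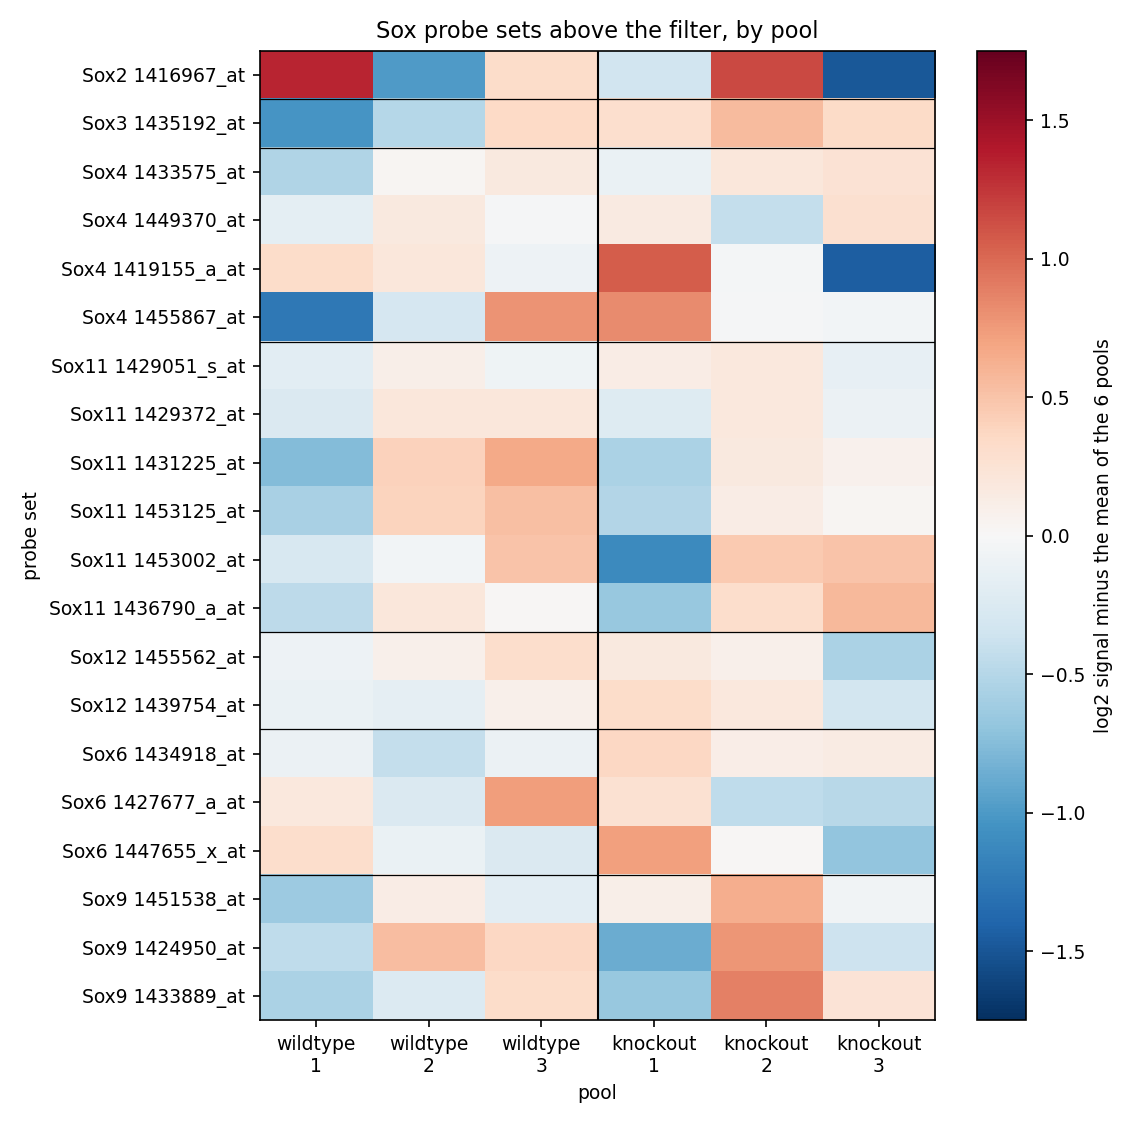
Log2 signal of the 20 Sox probe sets above the filter, each minus its mean over the 6 pools, with pools as columns and probe sets as rows; red is above and blue below that mean. Sox2 reaches the deepest colours, Sox11 1429051_s_at stays pale, and most Sox11 rows are blue in pool 1 of both genotypes.

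Sox6 was the only Sox gene whose genotypes did not overlap at the main probe set, but another of its probe sets pointed the other way. Sox6, a SoxD factor that with Sox5 steers the timing of neuron and oligodendrocyte differentiation, had 306, 238 and 304 in wildtype and 438, 361 and 368 in knockout at 1434918_at. Every knockout pool was above every wildtype pool. The means were 282 ± 38.5 and 389 ± 42.6 (SD, n = 3), a log2 difference of 0.42 (SE 0.25, 95% interval −0.14 to 0.98, limma adjusted p = 0.998). Over all genes tested, 10.1% did not overlap, 5.77% with higher values in knockout. Among the 7 Sox genes tested, 1 did not overlap.

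The second Sox6 probe set, 1427677_a_at, had nearly the same mean log2 signal (8.52, against 8.53 for the main one). It had 379, 270 and 575 in wildtype and 403, 231 and 226 in knockout, with a log2 difference of −0.44. With the probe set of highest mean linear signal in place of the highest mean log2 signal, Sox6 is represented by it, and its direction turns. The third, 1447655_x_at, gave 0.04, with knockout pool 1 highest at 324 and knockout pool 3 lowest at 97.9. The mean of the Sox6 probe sets above the filter gave 0.0051. Of the 4 Sox6 probe sets, 2 were lower and 2 higher in knockout.

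Sox5 lay below the filter at all 7 of its probe sets. The main one, 1455535_at, had 111, 41.4 and 190 in wildtype and 78.8, 121 and 122 in knockout, with a log2 difference of 0.05 (SE 0.43) in the fit without the filter. The other 6 ran from −0.78 to 0.90. At 1432190_at the signals were 68.8, 92.9 and 135 in wildtype and 21.3, 30.0 and 80.3 in knockout, and at 1452511_at they were 102.5, 125 and 135 against 23.6, 40.7 and 143. Knockout pools 1 and 2 were low at both.

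A different set of SoxD probe sets was high in the pools numbered 2, where spermatid genes also stood high. Sox5 1423500_a_at had 59.6, 164 and 81.2 in wildtype and 36.8, 294 and 76.2 in knockout. Sox6 1426018_a_at, which like the Sox5 probe sets lay below the filter, had 24.4, 105 and 45.8 in wildtype and 7.1, 178 and 22.2 in knockout. In both, the lower of the pools numbered 2 was at least 2.02 times the highest of the other 4. Sox5 1432189_a_at reached 370 in knockout pool 2 and stayed from 18.0 to 60.2 elsewhere, wildtype pool 2 included.

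Both pools numbered 2 were above the other 4 at 4 of the 38 Sox probe sets, these 2 and the Sox9 probe sets 1451538_at and 1424950_at. This was 10.5% of them, against 3.87% of all probe sets. Of 14 spermatid genes, 8 had the same pattern and 13 were highest in knockout pool 2. That pool was highest at 10 of the 38 Sox probe sets and at 13.4% of all probe sets. The summed signal of the spermatid genes was 8259 and 42976 in the wildtype and knockout pools numbered 2, and 2751 to 5275 elsewhere. Much of the sum elsewhere came from Odf2, which did not have the pattern and is named after its values were seen. Odf2 had 2837, 2613 and 2746 in wildtype and 1333, 4490 and 4562 in knockout. Crisp2 was at 1700 in wildtype pool 2, with the other 4 pools between 3.2 and 11.2. Prm1, which encodes a protamine of sperm chromatin, had 74.1, 720 and 68.2 in wildtype and 272, 3856 and 88.1 in knockout. The part of spermatid transcripts in the SoxD signals was not tested, and the probe sets were chosen after their values were seen.

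**Figure D4:**
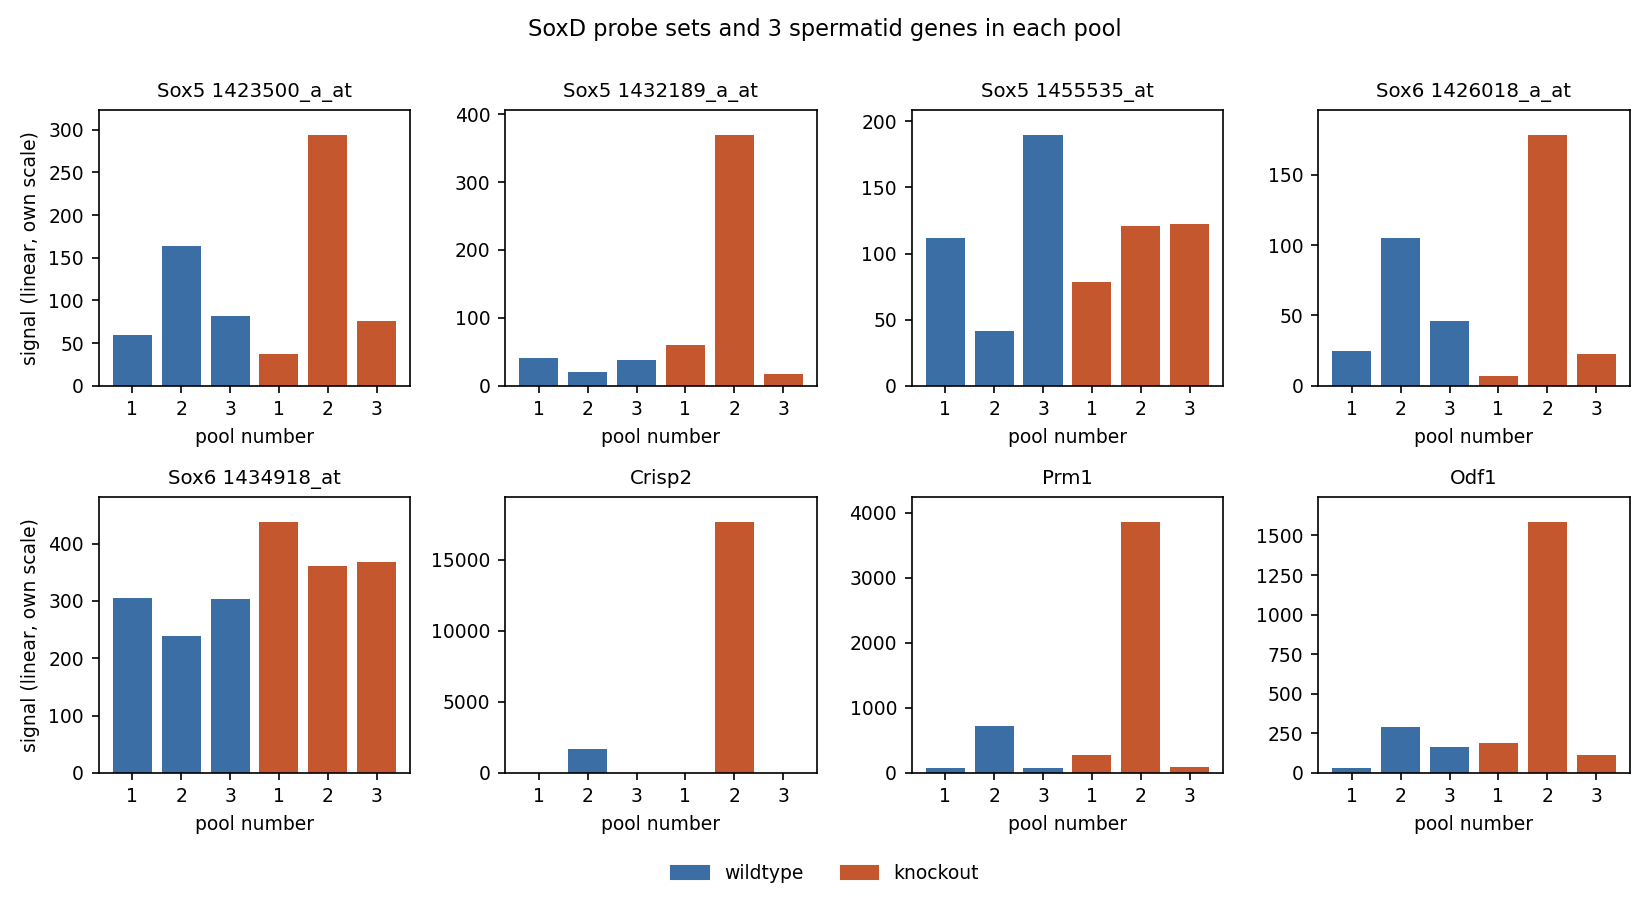
Linear signal in each pool (bars from 0, blue wildtype, orange knockout) for 5 SoxD probe sets and the spermatid genes Crisp2, Prm1 and Odf1; each panel has its own axis. Sox5 1423500_a_at and Sox6 1426018_a_at are highest in the pools numbered 2, as Crisp2 and Prm1 are, while Sox5 1455535_at and Sox6 1434918_at are not.

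Sox9 had a higher mean in knockout at its main probe set and did not pass the test. Sox9, a factor of glial progenitors and of cartilage, had 1062, 1834 and 1467 in wildtype and 1797, 2619 and 1599 in knockout at 1451538_at. Knockout pool 2 was the highest and wildtype pool 1 the lowest, and the groups overlapped. The means were 1454 ± 386 and 2005 ± 541 (SD, n = 3), a log2 difference of 0.46 (SE 0.33, 95% interval −0.29 to 1.2), with 0.74, 0.51 and 0.12 within numbers 1, 2 and 3. The difference was 0.25 without wildtype pool 1, 0.25 without knockout pool 2, and 0.15 with the mean of its probe sets.

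The second Sox9 probe set, 1424950_at, had 895, 1824 and 1599.6 in wildtype and 661, 2132 and 955 in knockout. Its log2 difference was −0.31, against the direction of the main one, and knockout pool 1 was its lowest pool. The third, 1433889_at, gave 0.31. Of 13 astrocyte and radial glia genes tested, 4 were lower and 9 higher in knockout (median 0.13), and of 6 cartilage genes 2 were lower and 4 higher (median 0.019), none past the threshold. Acan, a cartilage matrix gene that Sox9 activates, had 761, 561 and 299 in wildtype and 743, 1012 and 836 in knockout (log2 difference 0.72, SE 0.35). Col2a1, another, lay below the filter, with 200.5, 141 and 107 in wildtype and 128, 46.6 and 50.8 in knockout. Its difference had the opposite direction (−0.77, SE 0.39).

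Across the 38 probe sets of the 10 genes, 18 had lower and 20 higher means in knockout, and among the 20 above the filter the split was 9 and 11. Except for Sox21, each gene with more than 1 probe set had at least 1 in each direction. The groups did not overlap at 1 of the 38, against 9.81% of all probe sets. Within all 3 pool numbers the direction was the same for Sox4, Sox6 and Sox9, which is 3 of the 7 genes tested, against 30.2% of all genes tested.

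The profiles of the Sox genes over the pools were compared as the root mean square difference of log2 values, each gene centred on its own mean. The profiles were not scaled, so this distance also grows with the spread of either gene. Sox11 and Sox12 were closest, at 0.24, and Sox4 and Sox11 came next, at 0.26. Sox11, which had the smallest spread (SD 0.15), was also 0.26 from Sox6 and 0.27 from Sox9. Sox2, with an SD of 1.14, was at least 0.96 away from each of the other 6. Likeness of shape apart from spread was not tested. Among all genes tested, the 3 nearest to Sox4 were Ric3, Mmadhc and Ptprk (0.04 to 0.05), and the 3 nearest to Sox11 were Dstyk, Nxt1 and Trpm6 (0.05 to 0.06). For Sox2 the nearest gene, Gm3515, looked up after the other values were seen, was 0.45 away.

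The 10 other Sox genes with a probe set included factors of vessels and glia, and none of the 6 tested passed. Sox13, a SoxD relative, had 152, 40 and 208 in wildtype and 394, 165 and 207 in knockout (log2 difference 0.85, SE 0.49). Sox7, an endothelial factor, had 407, 483 and 493 against 489, 564 and 1042 (0.49, SE 0.32), with knockout pool 3 standing above the other 5. The endothelial gene Sox17 gave −0.28 (SE 0.43).

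Genes of neural progenitors were split between directions, and 0 of 17 tested passed. They had 8 lower and 9 higher means, with a median of 0.03, the same as that of all genes. Lhx2, Msi1 and Pax6, a homeobox pair and an RNA-binding protein of progenitors, had the smallest p. Lhx2 had 137, 202 and 234 in wildtype and 117, 91.2 and 44.5 in knockout (log2 difference −0.92, SE 0.38). Msi1 gave −0.86 (SE 0.40) and Pax6 −0.59 (SE 0.31). In these 3 and Cdh2, 4 of 17, every knockout pool was below every wildtype pool, against 4.33% of all genes tested. Pax6 is also in the pineal and photoreceptor list and is counted again there. In Vim, 1 of the 17, every knockout pool was above every wildtype pool (0.40), against 5.77%. Cdh2 and Vim are named for this pattern, after their values were seen.

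Genes of young neurons, among them those that SoxC factors are known to activate, were lower for 11 and higher for 8 of 19 tested, with a median of −0.03. None of them passed. Map2, of neuronal microtubules, had 8924.5, 4358 and 3953 in wildtype and 2586, 3094 and 1883 in knockout (log2 difference −1.11, SE 0.39). Elavl4 gave −0.57 (SE 0.27) and Nfasc 0.72 (SE 0.39). In Map2, Elavl4 and Dpysl3, 3 of 19, every knockout pool was below every wildtype pool, against 4.33% of all genes tested. In 0 of the 19 every knockout pool was above, against 5.77%. Dpysl3 is named for this pattern, after its values were seen. Tubb3, a tubulin gene that Sox4 and Sox11 activate, had 544, 256 and 49.1 in wildtype and 497, 76.7 and 107 in knockout. It was highest in pool 1 of both genotypes, a pattern whose share over all genes was not computed. In pool 1 of both genotypes 2 of 8 Sox4 and 5 of 6 Sox11 probe sets were lowest, against 16.9% of all probe sets. The main Sox11 probe set was not among them. Dcx and Tead2, other SoxC targets, gave −0.20 and −0.030. Tubb3, Dcx and Tead2 were singled out after their values were seen.

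Factors that act beside or after the Sox genes passed in neither direction. Among 10 proneural and neuroendocrine factors tested, 6 were lower and 4 higher, with St18 at −0.96 (SE 0.32), Insm1 at −0.92 (SE 0.38) and Myt1 at −0.54 (SE 0.35). Among 10 tested partners of Sox proteins, such as the POU and NFI factors, 5 were lower and 5 higher. The neuronal POU factor gene Pou4f1 had 74.5, 74.1 and 162 in wildtype and 126, 144 and 818 in knockout, with knockout pool 3 far above the rest. Pou3f3 gave −0.60 (SE 0.34) and Nfia 0.32 (SE 0.39). Of 18 cell cycle genes, 13 were lower and 5 higher (median −0.30), with Mcm2 at −1.16 (SE 0.39), and of 14 pineal and photoreceptor genes 13 were lower and 1 higher (median −0.51). The 3 pineal and photoreceptor genes of smallest p were Cplx4 at −0.94 (SE 0.27), Gnat2 at −0.88 (SE 0.26) and Ddc at −1.08 (SE 0.46). In 5 of the 14 every knockout pool was below every wildtype pool, against 4.33% of all genes tested, and in 0 above.

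Markers of other cell types that a dissected gland can hold were also read, and none passed. Higher means in knockout were found for 10 of 10 macrophage and microglia genes tested (median 0.54), 11 of 12 meningeal fibroblast genes (0.17), 7 of 7 Schwann cell and neural crest genes (0.28), 5 of 5 melanocyte genes (0.32) and 8 of 11 endothelial genes (0.17), against 53.2% of all genes tested. Among markers of cortex, cerebellum and midbrain 3 of 4 tested were lower (median −0.13). The midbrain and cerebellar factor gene En2 had 3389.9, 1556 and 1317 in wildtype against 249, 715 and 695 in knockout, without overlap (log2 difference −1.85, SE 0.48). Zic1 of the same list was higher (0.52, SE 0.31). Tbr1, below the filter and named after its values were seen, was higher without overlap (1.13, SE 0.34). The summed signal of this list, most of it from Zic1, was 23187 to 29312 in wildtype and 28137 to 41288 in knockout pools. The summed macrophage signal was 6573 to 7763 in wildtype and 9733 to 13347 in knockout pools, without overlap. Such separation was not particular to macrophages. The meningeal fibroblast sum was 115537 to 134837 against 142196 to 168683, and the neural progenitor sum 78880 to 85397 against 86120 to 118291. The sums of young neuron, proneural and neuroendocrine, and cell cycle genes were lower in knockout, also without overlap. The part of these other cell types in the Sox values was not tested.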

How the data were processed

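Pineal gland RNA from 6 pools was amplified once, labelled with biotin and hybridised to Affymetrix arrays, per the labels' protocols. The authors deposited 1 linear signal intensity for each of 45037 probe sets. GCOS is named in the submitters' processing notes, with the signal algorithm not given in the sources used here. The deposited 2% trimmed means lay between 499.5 and 499.96. No array pair shared over 0.127% identical values. Precision is limited by having 6 arrays, and p-values set the genotype difference against the spread between pools.

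Signals were used as log2(signal + 38.6), the offset being the 20th percentile of all values, and differences on this scale understate changes of dim genes. Probe sets below the 40th percentile of mean log2 signal were left out, and 1 probe set per gene gave 12797 genes. Genotypes were compared with limma 3.58.1 under R 4.3.3 (lmFit, eBayes with trend, two-sided, Benjamini-Hochberg adjusted p under 0.05). SEs and intervals are those of this fit, and of the fit without the filter for genes below it. The code was tested on simulated data. An exact permutation test of 3 pools against 3 cannot go below p = 0.1. Signals depend on the probe as well as the transcript, so levels are not compared between genes.

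Gene members, lists and tests were chosen with earlier results of these data known. The rule for named genes allowed the 10 Sox genes, Neurod1, up to 3 tested genes of smallest p per list of genes, and the 3 nearest profiles of the pair of Sox genes with the highest mean. Markers of other cell types are named where they move with a Sox gene, and Otx2, Rcvrn, Tph1, Crx and the genes declared so in the text were named outside the rule, after their values were seen. Symbols came from the platform annotation, and 34741 probe sets matched the RefSeq table of GRCm38.p6 by gene identifier. Promoter windows matched 8 of the 10 genes.

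Pools of the same number share a date in the labels and were treated as pairs, with pool number as a blocking term, in a second fit. Deviations from group means correlated by 0.32, 0.25 and 0.36 within numbers 1, 2 and 3. Offset, normalization, filter, probe set choice, variance model, array weights and left-out pools were the other alternatives.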

Additional observations from a re-analysis of the deposited data

How the results depend on the processing

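The Sox genes tested stayed without a call under every alternative run except limma's array weights, which called 3 of them (Sox2 at a log2 difference of 1.71, adjusted p = 0.0194; Sox3 at 1.02, adjusted p = 0.00928; Sox6 at 0.50, adjusted p = 0.0227) among 2932 genes called, moved the Sox median to 0.50 and left 1 Sox gene with a lower mean. The number of genes called was 0 with no offset, with an offset of 16 and without both pools of any number, and 0 to 1 when 1 pool was left out; in the first of these limma gave 420 genes at an unadjusted p under 0.05. Neurod1 kept its direction throughout: −4.87 with no offset (adjusted p = 0.0737), −4.78 with an offset of 16 (0.0531), −4.80, −4.98 and −4.23 without both pools numbered 1, 2 and 3, and −5.04 to −4.13 without 1 pool, where the call ended without any wildtype pool or knockout pool 1. The count of Sox genes with lower means was 4 of 10 with no filter, 1 and 0 without both pools numbered 1 and 3, and 0 to 2 without 1 pool. With the pool number as a replicate block, 0 Sox genes were called, at adjusted p between 0.768 and 0.928, while 798 genes against 428 had an unadjusted p under 0.05, and Neurod1 stayed called (adjusted p = 0.0158). Directions turned for Sox11 with median centring (−0.032) and the mean of all probe sets (−0.062), for Sox4 with quantile normalization (−0.20), for Sox6 with the probe set of highest mean linear signal (−0.44, an alternative chosen after seeing the data), for Sox12 without both pools numbered 3 (0.13) and between −0.34 and 0.031 without 1 pool, and for Sox2 without both pools numbered 1 (0.18) or 3 (0.24) and between −1.13 and 0.19 without 1 pool. The cause was not tested. Signal over background could not be judged, since detection calls were not analysed here.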
